A study of Mus musculus with 24 samples.

Results

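The genes described here are the cytosolic ribosomal protein genes of activated mouse T cells. A gene belonged to them if its name in the deposited count table was Rpl or Rps followed by a digit, Rplp0, Rplp1, Rplp2 or Rpsa, and if it held at least 2400 counts summed over 24 libraries. Names beginning with Rps6k (kinases), Rps3a or Rps27l and names marked as pseudogenes by "-ps" were left out. The rule gave 75 genes of the 55401 listed, 47 named Rpl, as proteins of the large subunit are, and 28 named Rps, as those of the small subunit are. Another 15 matching names fell under the threshold and 319 were left out as "-ps" copies. The name rule also took in genes that do not encode core ribosomal proteins, among them Rps19bp1, a protein that binds RPS19, and Rpl37rt, a processed copy of Rpl37.

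The study asks what the coactivator Pou2af1 does in T cells. CD4 or CD8 T cells were sorted from the spleens of C57BL/6 mice aged 12 weeks and cultured for 2 days with antibodies to CD3 and CD28, and poly(A) RNA was sequenced. The wild-type group carried 2 floxed Pou2af1 alleles and no Cre by its genotype label (CD4.Cre-.Pou2af1fl/fl), although its titles say +/+. The heterozygous group carried CD4-Cre with 1 floxed allele (CD4.Cre+.Pou2af1fl/+), and the knockout group carried CD4-Cre with both alleles floxed (CD4.Cre+.Pou2af1fl/fl). The Cre is driven by the Cd4 promoter, which is active during thymic development of both lineages. Because Cre was present in both mutant groups and not in the wild type, Cre and allele loss cannot be told apart against the wild type. Each of the 6 groups held 4 libraries, numbered 1 to 4 in the labels. The labels do not say whether equal numbers mark an animal, a litter or a day, nor that replicates came from separate animals, so p-values measure the spread between these libraries.

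Total gene counts per library were 11.94 to 21.76 megacounts (median 14). Pou2af1 itself lay at 28.6 to 49.3 CPM (a gene's counts per megacount of its library after TMM scaling) in CD4 wild type, 15.6 to 24.7 in heterozygotes and 1.3 to 3.79 in knockouts. In CD8 cells the corresponding ranges were 21.9 to 35.2, 13.4 to 16.4 and 0.76 to 2.44 CPM. The 3 genotypes did not overlap in either cell type. Cd4 was at 444.8 to 542.0 CPM in CD4 libraries and 0.212 to 1.74 in CD8 libraries, and Cd8a was at 0.0 to 0.668 and 639.7 to 766.9 CPM. The 5 B cell markers summed to 6.07 to 29.2 CPM in CD4 and 6.5 to 22.1 CPM in CD8 libraries, and the neutrophil gene S100a8 had no count in any library. In bulk RNA, fewer cells of a type and less RNA per cell cannot be told apart.

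A cytosolic ribosome joins a small subunit, which reads the mRNA, and a large subunit, which forms the peptide bonds. Each subunit holds ribosomal RNA and a set of proteins, nearly all of them encoded by a single active gene with many processed copies elsewhere in the genome. When a T cell is activated it enlarges and builds ribosomes before it divides, and the mRNAs of most ribosomal proteins begin with a stretch of pyrimidines, the terminal oligopyrimidine tract, through which mTORC1 and LARP1 control their translation.

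The start sites of the family were read from RefSeq to show that tract. Of the 75 genes, 57 matched an entry of the RefSeq promoter table (GRCm38.p6). A tract was counted where the annotated first base was C and it was followed on the gene's strand only by C or T for a run of at least 5 bases in all. It was found in 10 of the 57 genes (17.5%), against 673 of 27025 genes with an entry (2.49%). A gene without a match may have a start site annotated a few bases away. The examples below are the 20 bases from 5 before the annotated start, with the tract in capitals. They were chosen because Rps18 and Rplp2 were lower, and Rpl15 was higher, in some libraries described below, and because Rps6 is the small-subunit protein phosphorylated by S6 kinase.
Rps18, chr17:33955651-33955670, minus strand: ccgctCTCTCTTCCacagga
Rplp2, chr7:141447646-141447665, plus strand: tcttcCTTTCgccgccggac
Rpl15, chr14:18270972-18270991, minus strand: gccttCTTCCTTTCCTCTgg
Rps6, chr4:86857353-86857372, minus strand: cgggcCTCTTTTTCgtgacg
The longest tract of the 10 was that of Rpl15, with 13 bases, and the shortest had 5.

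The 75 genes together held 8.92 megacounts. Their share of a library's gene counts ran from 2.246% to 2.942%, with a median of 2.568%. The deposited table gave multimapping reads to no gene, and such reads made up 17.55% to 18.55% of the entries of a library. Reads that fit a ribosomal protein gene and a processed copy equally well are therefore missing, and the share is of uniquely placed reads only. To see how far this reaches, each coding sequence was cut into all its 50-base words, and a word was called shared if another annotated gene held it. The median gene shared 87.71% of its words, 23 of 75 genes shared all of them, and 2 shared none.

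Genes that shared more of their words had fewer counts. The 25 genes with the fewest counts shared a median of 100% of their words, the middle 25 shared 90.26%, and the 25 with the most counts shared 60.41%. Over the 75 genes Spearman's rho between the shared percentage and the total count was -0.65, a description across genes that differ in length and in level. Per kilobase of exon, Rpl4 was highest with 1590.2 CPM per kb, and shared 20.28% of its words. Rps15 (1336.5), Rpl8 (1001.9) and Rpl32 (978.3 CPM per kb) were also among the 5 highest, and the median of the family was 84.8 CPM per kb. The lowest were Rpl11 (4.21), Rps6 (4.89), Rpl28 (6.17), Rps28 (9.96) and Rpl37rt (10.6 CPM per kb), and Rpl11 and Rps6 shared every word.

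**Figure D1:**
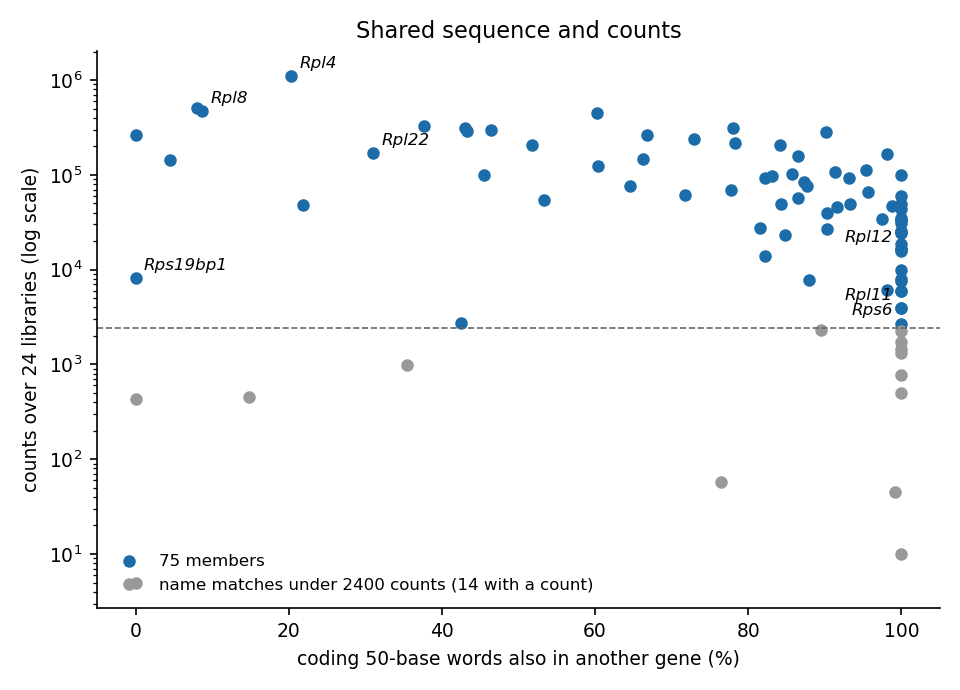
Percentage of a gene's 50-base coding words that another annotated gene holds (x axis) against its counts summed over 24 libraries (y axis, log scale), for the 75 genes in blue and name matches under the dashed threshold of 2400 counts in grey. Genes that share all their words lie among the lower counts, and Rpl4, with 20.28% shared, is the highest.

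The threshold fell inside the group of such low genes. Just above it were Rps6 with 2681 counts, Rpl37rt with 2749 and Rpl11 with 3925. Just below were Rps10 with 2295, Rpl23a with 2251 and Rps27 with 1704 counts. All 75 genes passed the filter on low counts in each fit, and the lowest count of any of them in any library was 76.

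The summed share overlapped between genotypes and separated libraries by number within every group. In CD4 cells it was 2.72% ± 0.166 (SD, n = 4) in wild type, 2.62% ± 0.116 in heterozygotes and 2.65% ± 0.231 in knockouts. In CD8 cells it was 2.5% ± 0.134, 2.48% ± 0.114 and 2.48% ± 0.239. The genotypes overlapped within each cell type. Within each of the 6 groups libraries 3 and 4 both lay below libraries 1 and 2. The mean of libraries 3 and 4 over that of libraries 1 and 2 was 0.916 in wild type, 0.931 in heterozygote and 0.87 in knockout CD4 cells, and 0.925, 0.94 and 0.848 in CD8 cells. Over protein-coding genes alone the median share was 2.638%, and without the 20 genes of highest count it was 2.448%.

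**Figure D2:**
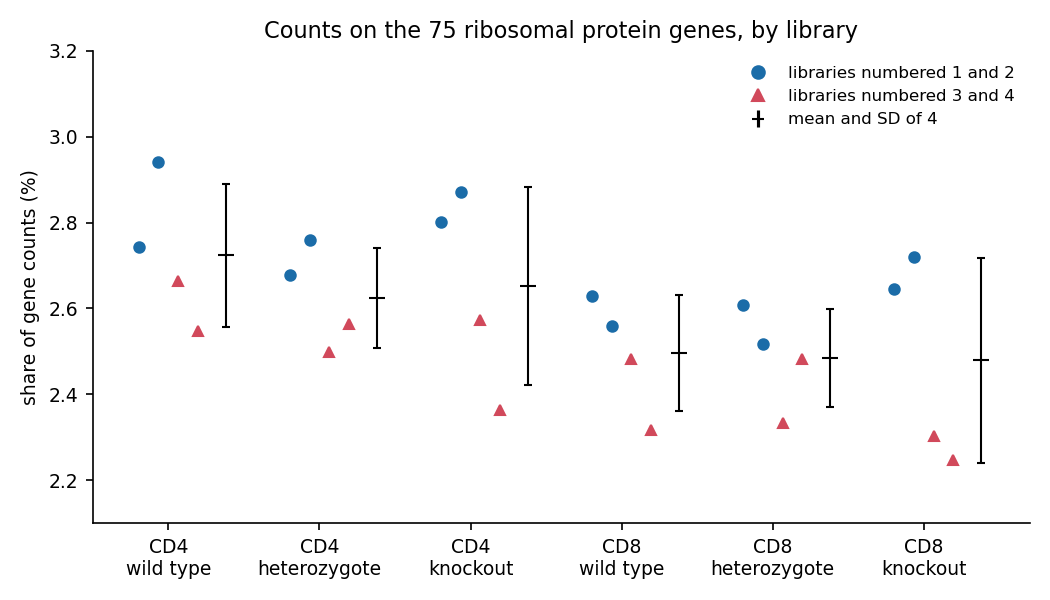
Share of each library's gene counts held by the 75 genes (y axis, percent, not starting at 0) for the 6 groups (x axis), with libraries 1 and 2 as circles, libraries 3 and 4 as triangles and the mean and SD of 4 as bars. In each group both libraries numbered 3 and 4 lie below both numbered 1 and 2, from 2.942% at the highest to 2.246% at the lowest.

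None of the 75 genes passed the test between genotypes. Each gene was tested across the whole table with edgeR's quasi-likelihood test and counted as called where p, adjusted by Benjamini-Hochberg over all genes, was under 0.05. In CD4 cells 0 of 75 genes were called for knockout against wild type, where 0.0708% of all genes tested were called. For CD4 heterozygote against wild type it was 0 of 75 against 0.0865% of all genes, and for knockout against heterozygote 0 of 75 against 0.0157%. In CD8 cells the counts were 0 of 75 in the same comparisons, beside 0.0634%, 0.0634% and 0.0159% of all genes. DESeq2 also called 0 of the 75 in each of the 6 comparisons. At an unadjusted p under 0.05 edgeR listed 1 gene in CD4 heterozygote against wild type and 0 in the other comparisons.

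That gene was Rpl11, a large-subunit protein that can bind MDM2 when ribosome assembly is disturbed. It lay at 11, 11.3, 11.3 and 10.4 CPM in CD4 wild-type libraries 1 to 4 and at 10.3, 9.41, 9.91 and 7.89 CPM in heterozygotes. Heterozygote libraries were all below the wild type, and the knockout libraries, at 9.97, 9.57, 11.9 and 9.85 CPM, overlapped both. The log2 difference was -0.24 (SE 0.108), with an unadjusted p of 0.0491 and an adjusted p of 0.575 by edgeR.

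Changes over the family were small and their intervals narrow. The median log2 difference of the 75 genes in CD4 cells was -0.04 for knockout against wild type (55 below 0), -0.06 for heterozygote against wild type (66 below 0) and 0.03 for knockout against heterozygote (24 below 0). The medians of all genes tested in these comparisons were -0.006, -0.019 and 0.007. In CD8 cells the medians of the 75 were -0.008, -0.001 and 0.002, with 43, 39 and 36 genes below 0. For knockout against wild type the lowest value in CD4 cells was Rpl36 at -0.19 and the highest was Rps6 at 0.19, and in CD8 cells the ends were Rpl15 at -0.18 and Rps6 at 0.17. None of these passed the test. For all 75 genes in each of the 6 comparisons the 95% interval of the difference, which covers library spread only, lay within 1.5-fold in either direction.

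The effect of genotype was also compared between cell types. The knockout effect in CD8 against that in CD4 was called for 0 of 75 genes by edgeR and by DESeq2, with 0 under an unadjusted p of 0.05, beside 0.00753% of all genes. The heterozygote effect gave 0 of 75 on all 3 counts, beside 0.00753%. Here the 95% intervals were wider, and reached 1.5-fold for Rpl28, Rpl37rt and Rpl7l1 in the knockout comparison and for Rpl11 and Rpl37rt in the heterozygote comparison.

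Rps3a1, the active gene for a small-subunit protein that the name rule leaves out, behaved differently. It fell from 512.2 ± 34.8 CPM in CD4 wild type to 257.6 ± 13.6 in heterozygotes and 268.5 ± 10.9 in knockouts, while the copy Rps3a3 went from 2.24 ± 0.175 to 187.5 ± 6.78 and 199.1 ± 6.16 CPM (SD, n = 4). Since near-identical copies can exchange reads in the authors' counting, the level of each is uncertain. Rps3a1, Rps3a2 and Rps3a3 summed to 517.9 ± 34.9, 446.7 ± 19.8 and 469.2 ± 16.5 CPM in the CD4 groups. In CD8 cells Rps3a1 went from 466.6 ± 10.7 CPM to 236.9 ± 7.97 and 246.3 ± 25.5, and Rps3a3 from 2.04 ± 0.453 to 174.7 ± 7.05 and 179.1 ± 14.1. The copies are among 6 ribosomal or ribosome-borne genes outside the name rule. Of these edgeR called 1 lower and 1 higher in each comparison with the wild type.

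Between cell types the ribosomal protein genes were mostly a little lower in CD8 than in CD4 cells, and Rpl12, which sits in the stalk base of the large subunit, was lower in all 3 genotypes. In wild type 3 of 75 genes were called, all lower, beside 31.2% of all genes called, 16.6% lower and 14.7% higher. In heterozygotes 5 were called, 4 lower and 1 higher, beside 34.9% of all genes, 17.8% lower and 17.1% higher. In knockouts 1 was called, lower, beside 24.1% of all genes, 13.0% lower and 11% higher. As shares of the 75 these counts are 4.0%, 6.67% and 1.33%, below the share of all genes in each genotype. The median log2 difference of the 75 was -0.10 in wild type (62 of 75 below 0), -0.06 in heterozygotes (49 below 0) and -0.08 in knockouts (64 below 0), and the medians of all genes were -0.015, 0.01 and -0.003.

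Rpl12 (GRCm38 chr2:32961559-32965345, plus strand) lay at 58.1, 57.1, 49.0 and 45.9 CPM in CD4 wild-type libraries 1 to 4, and at 36.6, 40, 41.0 and 34.7 CPM in CD8 wild-type libraries. In heterozygotes it was at 54.6, 57.5, 51.2 and 46.9 CPM in CD4 and 41.7, 39.6, 37.6 and 41.8 CPM in CD8 libraries. In knockouts it was at 66.2, 60.6, 44.6 and 43.3 CPM in CD4 and 36.3, 37.9, 40.2 and 36.3 CPM in CD8 libraries. All 12 CD4 libraries lay above all 12 CD8 libraries, and within CD4 the libraries numbered 1 and 2 were the highest of each genotype. The log2 difference was -0.46 in wild type (SE 0.113, adjusted p = 0.00367, edgeR), -0.39 in heterozygotes (SE 0.113, adjusted p = 0.0106) and -0.51 in knockouts (SE 0.114, adjusted p = 0.00185). All coding words of Rpl12 are shared, so these are differences in its few uniquely placed reads.

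Rplp0 binds next to Rpl12 and carries the acidic stalk proteins Rplp1 and Rplp2, which recruit the translation factors. It was at 1390.5, 1553.8, 1395.5 and 1346.7 CPM in CD4 wild-type libraries and 1232.6, 1197.1, 1213.3 and 1121.4 CPM in CD8 wild-type libraries. The groups did not overlap, and the log2 difference was -0.26 (SE 0.077, adjusted p = 0.0153, edgeR). In heterozygotes and knockouts it was -0.16 (adjusted p = 0.116) and -0.20 (adjusted p = 0.0641), which did not pass in this fit. A fit with a block is given below.

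Rps20, a protein of the small-subunit head, was at 300.2, 327.0, 355.0 and 331.3 CPM in CD4 wild type and 286.5, 273.9, 293.1 and 247.6 CPM in CD8 wild type. All CD4 libraries were above all CD8 libraries (log2 difference -0.25, SE 0.092, adjusted p = 0.0389, edgeR). In heterozygotes the genes called lower beside Rpl12 were Rpl22l1 at -0.36 (SE 0.115, adjusted p = 0.0192), Rpl17, a protein at the exit tunnel, at -0.29 (SE 0.111, adjusted p = 0.0481) and Rps2, at the mRNA entry channel, at -0.19 (SE 0.067, adjusted p = 0.0299). For Rps2 the lowest library of the CD8 heterozygotes, number 1 with 778.7 CPM, lay apart from the other 3, at 859.8 to 867.1 CPM. Of these calls only Rpl12 was made in more than 1 genotype. Whether the others differ between the wild type and a mutant group was covered by the tests of genotype effects above, none of which passed. Heterozygotes and knockouts were not compared with each other in this way.

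Rpl11 was the gene called higher in CD8 heterozygotes. It was at 10.3, 9.41, 9.91 and 7.89 CPM in CD4 and 11.8, 10.3, 12.2 and 16.6 CPM in CD8 heterozygotes. CD8 library 4 was the highest and CD4 library 4 the lowest, and the lowest CD8 and highest CD4 library both stood at 10.3 CPM. The log2 difference was 0.44 (SE 0.154, adjusted p = 0.031, edgeR). Rpl27, a large-subunit protein, had positive differences of 0.30, 0.34 and 0.35 in the 3 genotypes without passing (adjusted p = 0.096, 0.0524 and 0.0665).

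**Figure D3:**
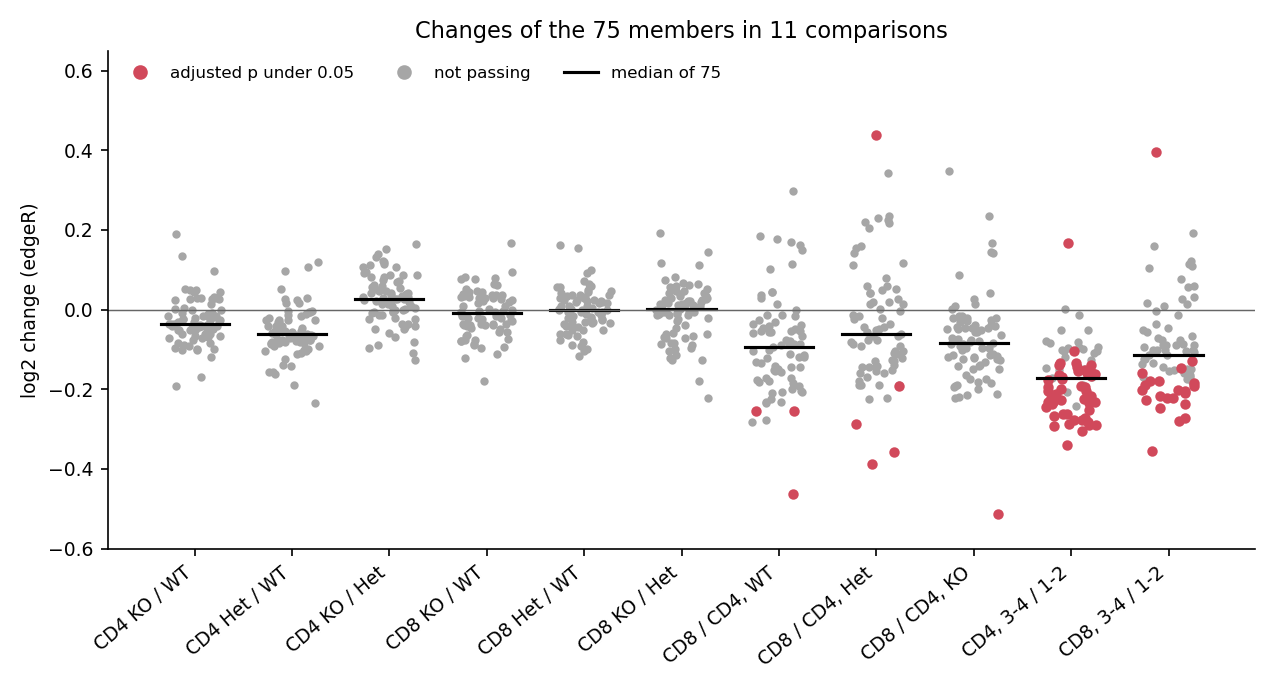
Log2 changes (edgeR, y axis) of the 75 genes in 11 comparisons (x axis), 1 point a gene, with called genes in red, the others in grey and the median as a black line (WT wild type, Het heterozygote, KO knockout). Genotype comparisons lie near 0 with no called gene, Rpl12 is the lowest point of each CD8 against CD4 comparison, and the comparisons by library number have 48 and 21 genes called lower.

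Same-numbered CD4 and CD8 libraries of a genotype deviated from their group means together, with correlations of 0.295 to 0.397 in wild type, 0.147 to 0.374 in heterozygotes and 0.354 to 0.451 in knockouts. Differently numbered libraries ranged from -0.427 to 0.368, from -0.389 to 0.292 and from -0.376 to 0.313, so that the ranges overlapped in wild type and heterozygotes. With the genotype and number as a block, a fit added after seeing these values, 18 genes were lower in CD8 wild type (19.9% of all genes were called lower), 12 in heterozygotes (20.9%) and 8 in knockouts (16.2%). A further 3, Rpl7a, Rpl37a and Rpl11, were higher in heterozygotes. Rps18, for example, differed in the blocked fit by -0.18, -0.19 and -0.18 (adjusted p = 0.0141, 0.00856 and 0.0152). Rpl12, Rpl13a, Rpl22l1, Rplp0 and Rps4x were also called lower in all 3 genotypes in this fit. The share of all genes lower in all 3 was not counted. Rplp0 differed by -0.25, -0.16 and -0.19 (adjusted p = 0.0029, 0.0376 and 0.0183). As shares of the 75 the counts of lower genes are 24%, 16% and 10.7%, above the share of all genes in wild type and below it in heterozygotes and knockouts.

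Leaving out single libraries moved the counts of the fit without the block, which were 3, 5 and 1. The share of all genes called in each of these fits is not given here. Alone the counts do not show a change particular to the family. In wild type the count was 1 without CD4 wild-type library 2 or CD8 wild-type library 4, and 9 without CD4 wild-type library 4. It was 5 without CD4 knockout library 2 and 6 without CD4 knockout library 4 or CD8 knockout library 2, which enter only through the shared estimate of spread. In heterozygotes it was 2 without CD4 library 2. In knockouts it was 6 without CD4 library 4, 2 without CD8 library 1 and 5 without CD8 library 2.

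Rpl22l1 is a paralog of Rpl22, with which it can exchange in the large subunit. Rpl22 is required for the development of alpha-beta T cells. The coding sequences of the pair have 366 aligned bases, of which 257 (70.2%) are identical, and the longest identical run is 26 bases, shorter than the words used above. Rpl22 shares 31.04% of its words with other transcripts and Rpl22l1 84.23%. A stretch of 30 coding bases is shown as an example of how reads of the pair resemble each other. It does not hold the whole of the longest identical run, and its 4 differing bases are in capitals.
Rpl22, chr4:152332280-152332309, plus strand (coding bases 243 to 272 of 384): gtatttgaaatatctCaccaaAaaataTTt
Rpl22l1, chr3:28807187-28807216, plus strand (coding bases 225 to 254 of 366): gtatttgaaatatctTaccaaGaaataCCt

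Rpl22 was at 535.7, 552.2, 512.0 and 487.4 CPM in CD4 wild-type libraries and 484.9, 497.7, 475.9 and 471.0 CPM in CD8 wild-type libraries. Rpl22l1 was at 158.7, 158.0, 170.5 and 144.0 CPM in the same CD4 libraries and 129.0, 122.8, 136.0 and 133.1 CPM in the CD8 libraries. For Rpl22l1 every CD4 library was above every CD8 library, and for Rpl22 the groups overlapped. In the fit without a block neither difference passed in wild type (log2 -0.11, adjusted p = 0.0671 for Rpl22, and -0.28, adjusted p = 0.0709 for Rpl22l1, edgeR). In heterozygotes Rpl22l1 passed and Rpl22 did not (-0.08, adjusted p = 0.192). With the block by genotype and number, Rpl22l1 was lower in CD8 in wild type (-0.28, adjusted p = 0.00385, edgeR), heterozygotes (-0.36, adjusted p = 0.000462) and knockouts (-0.22, adjusted p = 0.0194).

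The level of Rpl22l1 as a percentage of that of Rpl22 within a library does not depend on scaling. In CD4 cells it was 29.6, 28.6, 33.3 and 29.5% in wild-type libraries, 29.5, 32.7, 30.3 and 31.8% in heterozygotes and 33.3, 37.0, 26.7 and 26.2% in knockouts. In CD8 cells it was 26.6, 24.7, 28.6 and 28.3% in wild type, 26.8, 24.2, 27.2 and 24.5% in heterozygotes and 27.8, 36.6, 25.8 and 25.2% in knockouts. Knockout libraries 2 of both cell types were the highest of their cell type, and the CD4 knockout libraries 3 and 4 lay below all other CD4 libraries. The log2 ratio was lower in CD8 than in CD4 by -0.16 in wild type and by -0.28 in heterozygotes. In both, the 4 CD8 libraries lay below the 4 CD4 libraries, which gives the smallest p that 70 assignments allow (exact permutation test, 2-sided, p = 0.0286). Adjusted over the 11 comparisons made of this ratio, p was 0.157, so neither passed. In knockouts the difference was -0.09 (exact permutation p = 0.657), and without CD4 knockout library 2 it was 0.0. The test did not pair libraries by number, and leaving out that library leaves CD8 knockout library 2 without its same-numbered partner. In every genotype each CD8 library lay below the CD4 library of the same number. The other genotype and number comparisons gave exact p values from 0.278 to 0.914.

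**Figure D4:**
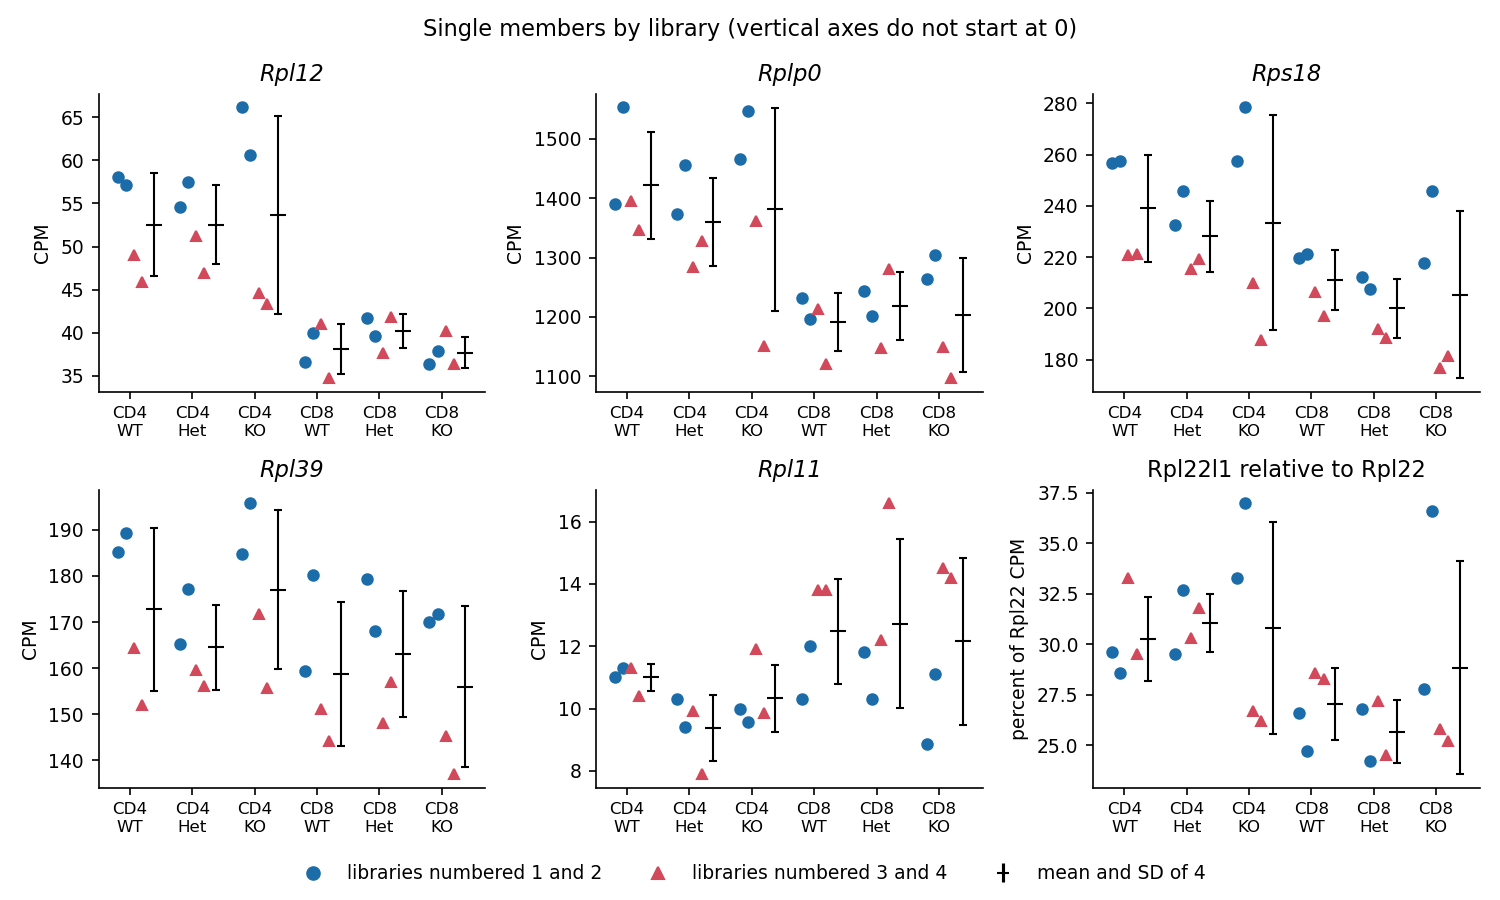
CPM of 5 genes and the level of Rpl22l1 as a percentage of Rpl22 (y axes, not starting at 0) in the 24 libraries by group (x axis), with libraries 1 and 2 as circles, libraries 3 and 4 as triangles and the mean and SD of 4 as bars. All CD4 libraries of Rpl12 lie above all CD8 libraries, and Rpl11 is higher in CD8 libraries 3 and 4, at 12.2 to 16.6 CPM, than in CD8 libraries 1 and 2.

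The same percentage was taken for the other paralogs. Rpl7l1, which resembles the large-subunit protein Rpl7, stood at 16.2% ± 1.36 of Rpl7 in CD4 wild type and at 21.3% ± 3.47 in CD8 heterozygotes, the lowest and highest group means. Rpl36al was at 16.5% to 20.4% of Rpl36a in the group means. Copies known mainly from testis or muscle were low. Rpl39l reached at most 1.52% of Rpl39 in a library, Rpl3l held 5 counts in all and Rpl10l held 0. Rps4l, annotated as a transcribed processed pseudogene, reached at most 0.38% of Rps4x in a library. Rps27l held 35217 counts, more than the 1704 of Rps27. All coding words of Rps27, Rpl36a and Rpl36al are shared, so their counts are of few uniquely placed reads. The comparisons with these genes are therefore not ratios of expression. Of the copies Rpl22l1 and Rpl7l1 belong to the 75 genes, Rpl36al, Rpl39l, Rps4l, Rpl3l and Rpl10l lie under the threshold, and Rps27l is left out by name.

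The largest set of called ribosomal protein genes came with library number. Libraries 3 and 4 were compared with libraries 1 and 2 within each cell type, with genotype in the fit. The numbers come from the labels, but the split into these pairs was taken from earlier results of these data, so the counts describe these libraries and are no independent finding. In CD4 cells 49 of 75 genes were called, 48 lower in libraries 3 and 4 and 1 higher, beside 34.8% of all genes, 16.9% lower and 17.9% higher. In CD8 cells 22 were called, 21 lower and 1 higher, beside 17.8% of all genes, 8.86% lower and 8.98% higher. The median log2 difference was -0.17 in CD4 (73 of 75 below 0) and -0.11 in CD8 (60 of 75 below 0), and the medians of all genes were -0.003 and -0.006.

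Lower genes were found under both names. Of the 28 genes named Rps, Rps19bp1 included, 19 fell in CD4 (median -0.19) and 9 in CD8 (median -0.15), and of the 47 genes named Rpl, Rpl37rt included, 29 fell in CD4 (median -0.17) and 12 in CD8 (median -0.10). In CD4 cells 33 of 75 genes (44.0%) had libraries 3 and 4 below libraries 1 and 2 in all 3 genotypes, against 10.1% of all genes tested, and in CD8 cells 12 (16%) did, against 6.68%. The genes called lower in both cell types numbered 18 (24% of the 75, against 4.66% of all genes tested in both), which is 37.5% of those of CD4 and 85.7% of those of CD8. Same-numbered CD4 and CD8 libraries deviated with the positive correlations given above, so the cell types are not independent here.

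On the small subunit, the called genes of large change in CD4 included Rps19, which is mutated in Diamond-Blackfan anaemia (log2 difference -0.29, SE 0.07, adjusted p = 0.00653, edgeR), Rps14 (-0.27, SE 0.044, adjusted p = 0.000538) and Rps18 (-0.27, SE 0.051, adjusted p = 0.00151).

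In CD8 cells the small-subunit genes with the largest falls were Rpsa, which is also known as a laminin receptor (-0.28, SE 0.058, adjusted p = 0.00731), and the X-linked Rps4x (-0.25, SE 0.052, adjusted p = 0.00748), followed by Rps18 (-0.23), Rps15 and Rps15a (both -0.22). Rps18, whose start tract is shown above, was at 207.4 to 245.6 CPM (median 218.7) in CD8 libraries 1 and 2 and 176.7 to 206.3 CPM (median 190.1) in libraries 3 and 4. Its ranges did not overlap there or in CD4 cells, where they were 232.4 to 278.5 CPM (median 257.1) and 187.8 to 221.1 CPM (median 217.2).

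On the large subunit, the X-linked Rpl39, a short protein of the exit tunnel, fell in both cell types. It was at 165.2 to 195.8 CPM (median 185.0) in CD4 libraries 1 and 2 and 152.1 to 171.8 CPM (median 157.9) in libraries 3 and 4. In CD8 the ranges were 159.4 to 180.1 CPM (median 170.9) and 137.0 to 157.0 CPM (median 146.6). They did not overlap in CD8, and overlapped in CD4 when the genotypes are pooled. The log2 differences were -0.20 in CD4 (SE 0.042, adjusted p = 0.00289) and -0.24 in CD8 (SE 0.042, adjusted p = 0.00304). The stalk proteins Rplp1 (-0.29 and -0.20) and Rplp2 (-0.19 and -0.19) were called lower in both cell types, and Rplp0 in CD4 (-0.17, adjusted p = 0.0212) and not in CD8 (-0.10, adjusted p = 0.125). Rpl4, the most abundant, fell by 0.16 in CD4 on the log2 scale (adjusted p = 0.0023), and in CD8 the difference was -0.11 (adjusted p = 0.0646). Neither Rpl22 nor Rpl22l1 passed in either cell type.

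**Figure D5:**
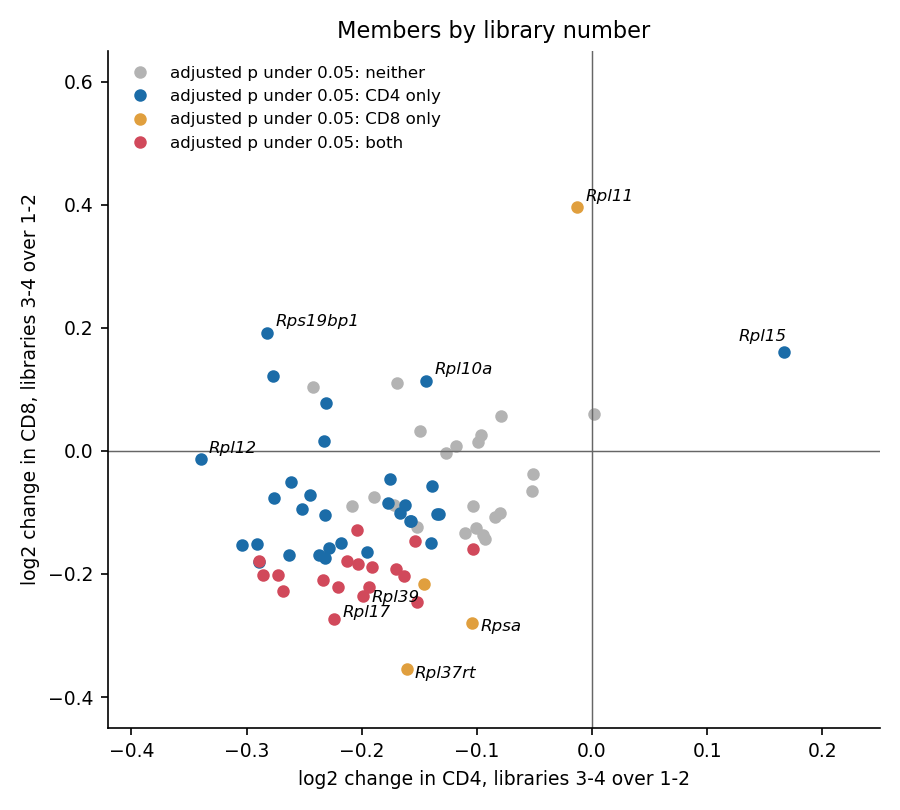
Log2 change of libraries 3 and 4 over 1 and 2 for each of the 75 genes in CD4 cells (x axis) and CD8 cells (y axis), coloured by the cell types in which the gene was called. Most points lie below 0 on both axes, and Rps19bp1, Rpl12 and Rpl10a lie at -0.28, -0.34 and -0.14 in CD4 and at 0.19, -0.01 and 0.11 in CD8.

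A pair of genes went the other way. Rpl15, a protein of the large subunit's core with the longest start tract shown above, was at 46.9 to 50.8 CPM (median 49.4) in CD4 libraries 1 and 2 and 48.9 to 60.5 CPM (median 56.2) in libraries 3 and 4. Only 1 library of the latter, heterozygote number 4, lay inside the range of the former, and the log2 difference was 0.17 (SE 0.046, adjusted p = 0.0134, edgeR). In CD8 it was 0.16 and did not pass (adjusted p = 0.196). Rpl11 was at 8.87 to 12.0 CPM (median 10.7) in CD8 libraries 1 and 2 and 12.2 to 16.6 CPM (median 14) in libraries 3 and 4, without overlap (0.40, SE 0.093, adjusted p = 0.0129). In CD4 its ranges of 9.41 to 11.3 CPM and 7.89 to 11.9 CPM overlapped, and the difference was -0.01.

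The number effect differed between cell types for 3 of 75 genes (4.0%), below the 5.86% of all genes. Rps19bp1, the RPS19-binding protein, was at 23.6 to 25.4 CPM (median 25) in CD4 libraries 1 and 2 and 17.0 to 22.6 CPM (median 20.8) in libraries 3 and 4, and in CD8 at 20.4 to 25.7 CPM (median 22.4) and 22.8 to 29.4 CPM (median 25.9). The CD4 ranges did not overlap and the CD8 ranges did, with the higher median in libraries 3 and 4, and the difference of the effects was 0.48 (SE 0.106, adjusted p = 0.0121, edgeR). For Rpl12 the difference was 0.33 (SE 0.083, adjusted p = 0.0239). Its CD4 ranges were 54.6 to 66.2 CPM and 43.3 to 51.2 CPM, without overlap, and its CD8 ranges of 36.3 to 41.7 CPM and 34.7 to 41.8 CPM overlapped almost wholly. For Rpl10a, at 71.0 to 83.8 CPM and 69.0 to 76.5 CPM in CD4 and 64.6 to 77.1 CPM and 68.3 to 80.8 CPM in CD8, it was 0.27 (SE 0.071, adjusted p = 0.0312). The count of 3 was 1 without CD8 wild-type library 3 and 6 without CD8 heterozygote library 3, and DESeq2 called 5. For these fits the share of all genes called is not given here.

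Within single genotypes, where 2 libraries stand against 2, the counts were lower. In CD4 cells 19 genes were called lower in wild type (11.1% of all genes), 9 in heterozygotes (3.11%) and 6 in knockouts (3.8%), with medians of -0.14, -0.15 and -0.24. In CD8 cells it was 0 in wild type (0.154%), 0 in heterozygotes (0.0404%) and 1 in knockouts (1.9%) by edgeR, with medians of -0.08, -0.05 and -0.20. The median was below 0 in each of the 6. Without CD8 knockout library 3 the CD8 count of called genes was 14, and the share of all genes called in that fit is not given here.

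Other measures moved with the library number. By Xist against the Y-linked Ddx3y, 3 of the 6 libraries numbered 1 and 2 and 1 of the 6 numbered 3 and 4 came from females, in each cell type. With a term for sex, added after seeing the data, 46 genes were lower in CD4 (19.5% of all genes) and 13 in CD8 (5.09%). Multimapping reads made up 17.97% to 18.45% of entries in CD4 libraries 1 and 2 and 17.66% to 18.01% in libraries 3 and 4, and in CD8 17.73% to 18.55% and 17.55% to 18.5%. Reads counted as ambiguous made up 1.06% to 1.09% and 1.02% to 1.05% in CD4. The 4 plasma cell markers, among which Xbp1 and Prdm1 are also expressed by activated T cells, summed to 95.1 to 122.7 CPM in CD4 libraries 1 and 2 and 138.5 to 156.2 CPM in libraries 3 and 4, and to 84.1 to 145.1 CPM and 158.8 to 209.0 CPM in CD8. In CD8 cells the 4 T cell markers summed to 1217.4 to 1344.2 CPM in libraries 1 and 2 and 967.0 to 1205.2 CPM in libraries 3 and 4, and the 4 dendritic cell markers to 7.53 to 17.9 CPM and 3.83 to 6.19 CPM, neither with an overlap. In CD4 cells both lists overlapped, at 946.4 to 1017 CPM and 892.5 to 1118.1 CPM for T cells and 7.44 to 9.15 CPM and 4.52 to 12.5 CPM for dendritic cells. The 5 B cell markers ran from 12.3 to 22.1 CPM and from 6.5 to 12.4 CPM in CD8, and from 6.65 to 15.2 CPM and from 6.07 to 29.2 CPM in CD4. The 3 NK cell markers ran from 12 to 23.5 CPM and from 18.3 to 35.4 CPM in CD4. In CD8 they went in the other direction, from 64.0 to 90.1 CPM and from 43.4 to 69.8 CPM. Nearly all of that sum was Eomes, at 11.5 to 35.3 CPM in CD4 and 43.3 to 90.1 CPM in CD8. Ncr1 and Klrb1c reached at most 0.282 and 0.532 CPM. Of the dendritic cell markers, Zbtb46 was at 3.93 to 12.0 CPM in CD4 and 3.62 to 16.7 CPM in CD8. Itgax reached at most 3.25, Flt3 0.855 and Siglech 0.0696 CPM. The CD4 lineage markers in CD8 libraries ran from 4.52 to 17.5 CPM and from 3.12 to 5.79 CPM. The part of these measures in the result was not tested.

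Other genes of like length and level were set beside the family. In CD4 cells the other 293 genes whose exon length and abundance both fell in the range of the middle 50% of the family had a median log2 difference of -0.05, and 33.4% of them were lower, against 64.0% of the family. In CD8 cells the 312 such genes had a median of 0.04, and 11.2% were lower, against 28.0%. The shares of the family are over all 75 genes, those outside that range included, so the sets are matched only in part. The lower genes were also counted by shared words. Of 14 genes with under 50% of words shared 9 fell in CD4 and 3 in CD8, of 38 with 50% to under 100% shared 26 and 16 fell, and of 23 with all words shared 13 and 2 fell. The medians of these groups were -0.17, -0.20 and -0.16 in CD4, and -0.14, -0.15 and -0.01 in CD8.

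Some genes varied more than others between and within groups. Rpl12 (0.245), Rpl27 (0.186), Rpl11 (0.168), Rpl22l1 (0.165) and Rpl17 (0.134) had the largest SD of the 6 group means of the log2 level. Within groups Rps6 (0.235), Rpl11 (0.221), Rpl37rt (0.217), Rpl36 (0.2) and Rpl27 (0.199) varied most. Rps6 lay at 6.29 to 9.7 CPM in CD4 and 6.05 to 10.3 CPM in CD8 libraries, near the threshold, where counting error is a larger part of the spread.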

How the data were processed

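Poly(A) RNA of 24 libraries, 4 in each of 6 groups, was counted by gene. The deposited raw counts are whole numbers for 55401 genes, and per the submitters' processing notes Trimmomatic 0.35, STAR 2.7.1a, DESeq2 1.26.0 and the build GRCm38 were used. Neither the annotation release nor a strand setting is given in the sources used here, and antisense or overlapping genes are therefore uncertain. Summary lines (31.57% to 34.99% of a library's entries) stayed out of library sizes and tests. The deposited normalized signal is each raw count over a single factor of its library (0.84 to 1.558, tested on the tables) and was used in 1 alternative, the ratio of Rpl22l1 to Rpl22. Unused columns of per-sample values numbered 0.

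The tests used edgeR 4.0.16 under R 4.3.3 (filterByExpr, TMM, quasi-likelihood F test, 2-sided), with Benjamini-Hochberg adjustment over all genes tested: 12719 for CD4, 12612 for CD8 and 13288 for the 24 libraries together. Genotypes were fitted within a cell type (12 libraries, 9 residual degrees of freedom), cell types over 24 libraries (18), and the numbers 3 and 4 against 1 and 2 with genotype in the fit (8). Levels are TMM-scaled CPM. Standard errors were obtained by dividing a log2 change by the root of its F. The test was tried on simulated counts. Alternatives were DESeq2 1.42.0, other scaling, no filter, blocks for the replicate number and leaving out each library. Exact permutation tests were used for the ratio. Libraries of a group differed by more than sampling noise in each of 36 pairs (lowest chi-square per degree of freedom 2.78). The median depth was 14 megacounts, and the lowest count of any of the 75 genes in a library was 76 (Rpl37rt), where counting error adds to the spread.

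Whether numbers pair libraries was checked from correlations of deviations from the group means. All same-numbered pairs exceeded 0.1 between CD4 and CD8 libraries of a genotype and between CD4 genotypes (0.132 to 0.58), and not between CD8 genotypes (from -0.226). Differently numbered CD4 libraries reached 0.401 for wild type with heterozygote, 0.598 for wild type with knockout and 0.427 for heterozygote with knockout. The ranges therefore overlapped between CD4 genotypes too. The 75 genes, gene lists and tests were chosen with earlier results of these data known. Genes named are, per comparison, up to 12 called genes each way by size of change, or the 3 of lowest p where fewer than 3 passed, with paralogs, X-linked genes, stalk proteins, Rpsa and the 5 of highest and lowest level or spread. Library values were given for a selection of these made after their values were seen. Some genes that this rule takes are not reported here.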

Additional observations from a re-analysis of the deposited data

Results flagged for a closer look

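In 96 sets of 4 libraries, a library was taken to stand apart where its gap to the nearest other as a share of the range exceeded Dixon's 95% critical value, which chance gives in about 1 of 20 sets. This happened in 2 sets. Rpl10a in CD4 heterozygotes had its highest library at 74.8 CPM and the others at 70.5 to 71.1 CPM. Rps2 in CD8 heterozygotes had its lowest library at 779 CPM and the others at 860 to 867 CPM.

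The change from libraries 1 and 2 to libraries 3 and 4 differed between CD8 and CD4 cells for 3 genes in edgeR's test of that difference. These are 4.0% of the 75, below the 5.86% of all genes. It was more positive in CD8 than in CD4 by 0.48 on the log2 scale for Rps19bp1 (adjusted p = 0.0121), whose changes were -0.28 in CD4 and 0.19 in CD8. For Rpl12 the difference was 0.33 (adjusted p = 0.0239), between -0.34 in CD4 and -0.01 in CD8. For Rpl10a it was 0.27 (adjusted p = 0.0312), between -0.14 in CD4 and 0.11 in CD8. The changes in CD4 passed on their own and those in CD8 did not.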

How the results depend on the processing

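The 0 calls among genotypes and between genotype effects held under every alternative run, the replicate block included. For the number in CD4, leaving out a library gave 45 to 56 calls. For CD8 against CD4 in wild type (3) the counts were 6 with DESeq2 or the 8 libraries of the genotype, and 18 with libraries 1 and 2 alone, the replicate block or the block by genotype and number. In heterozygotes (5) they were 2 without a filter, 12 with the 8 libraries, 14 with the replicate block, 15 with the block by genotype and number and 19 with libraries 1 and 2 alone. In knockouts (1) they were 2 with DESeq2 or libraries 3 and 4 alone, 7 with libraries 1 and 2 alone and 8 with either replicate block. Leaving out a library gave 1 to 9, 2 to 7 and 1 to 6 in these, 1 to 6 for the difference of number effects (5 with DESeq2) and 14 to 30 for the number in CD8. The counts for CD8 against CD4, and those by number on leaving out a library, stand here without the share of all genes called in the same fit. Alone they do not show a change particular to the family. With the block by genotype and number, the family's share of lower genes exceeded that of all genes in wild type. In heterozygotes and knockouts it was below that of all genes. Within single genotypes fewer libraries were tested: 19, 9 and 6 calls in CD4 and 0, 0 and 1 in CD8, and with a sex term 14 in CD8. Apart from those fits the causes were not tested. The block with numbers rests on the deviations of libraries, not on the labels.

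Of 83 called results of single genes, 79 lost the call under at least 1 alternative (315 values in all), and of 66 that did not pass, 10 did so under an alternative (31 values). Of the 83, 1 changed sign under an alternative: Rpl31 by number in CD4 was 0.01 within knockouts. Among results that did not pass, sign changed with libraries 3 and 4 alone for Rps6 (CD4 knockout against wild type -0.014, heterozygote against wild type -0.031), Rpl28 (CD4 knockout against wild type -0.077), Rpl32 (CD8 knockout against wild type -0.029) and Rpl22l1 (CD8 knockout against heterozygote -0.050). It also changed by number in CD8 for Rpl10a within wild type (-0.003) and Rpl15 within heterozygotes (-0.005), and for Rps6 in CD4 heterozygotes against wild type on leaving out a library (-0.023 without heterozygote library 1, up to 0.198). On leaving out a library the log2 ratio of Rpl22l1 to Rpl22 ran from -0.083 to 0.083 for CD4 knockout against wild type, -0.121 to 0.045 for CD4 knockout against heterozygote, -0.039 to 0.14 for CD8 knockout against wild type, -0.213 to 0.0 for CD8 against CD4 knockouts and -0.119 to 0.013 for the number in CD8. The deposited normalized values gave the same ratios.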

Other observations

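Genes that build or assist ribosomes did not all move as the ribosomal protein genes did. Of 51 ribosome biogenesis genes (RNA polymerase I subunits, nucleolar processing and export factors), 21 were lower and 0 higher in CD4 libraries 3 and 4, among them Polr1c (-0.55, adjusted p = 0.00011) and Mrto4 (-0.24), with a median log2 difference of -0.10. In CD8 cells 8 were higher and 1 lower (median 0.14), and the difference between the cell types passed for 11 genes, all more positive in CD8. In CD8 against CD4 wild type 16 of the 51 were higher and 0 lower (median 0.21), for example Fbl, the fibrillarin methyltransferase (0.40), and Bop1 (0.45). In heterozygotes 9 were higher and 1 lower, and in knockouts 4 were higher and 0 lower.

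The 9 snoRNA host genes, whose spliced transcripts mostly carry the same start tract, were lower in 8 cases in CD4 libraries 3 and 4 (median -0.48, Snhg1 at -0.77) and in 1 case in CD8. They were lower in CD8 than in CD4 for 6 of 9 in wild type, 6 in heterozygotes and 1 in knockouts. Of 22 translation factors and other genes known for the tract, 10 were lower and 1 higher by number in CD4, and 2 lower and 3 higher in CD8. Eef1a1, which delivers aminoacyl-tRNA, was lower in both (-0.28 and -0.22), and Vim, the intermediate filament gene, was higher in both (0.92 and 0.89). Of 77 mitochondrial ribosomal protein genes tested, 19 were lower and 6 higher by number in CD4, and 0 lower and 6 higher in CD8. Of 17 growth regulators, 1 was higher and 5 lower by number in CD4, and 3 higher and 4 lower in CD8. Those of lowest p in each direction were Sesn2 (-1.10) and Ddit4 (0.32) in CD4, and Mxd4 (-1.07) and Myc (0.26) in CD8. Of all genes 16.9% were lower and 17.9% higher by number in CD4, and 8.86% lower and 8.98% higher in CD8. In CD8 against CD4, 16.6% of all genes were lower in wild type, 17.8% in heterozygotes and 13.0% in knockouts. The lists are described by counts beside these shares, with no test of a list.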
